A study of Caenorhabditis elegans with 12 samples.

Results

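Libraries labelled stt-3 RNAi were compared with control RNAi libraries of worms kept on the E. coli RNAi bacteria, with no pathogen. These are 6 of the 12 RNA-seq libraries of the study, 3 labelled stt-3 RNAi and 3 control RNAi, chosen by their labels alone. All worms were wild-type N2 worms of Caenorhabditis elegans, raised from eggs on the RNAi bacteria to the L4 stage, moved to fresh plates of the same bacteria and harvested whole as adults after 12 h. The other 6 libraries come from worms with the same RNAi treatments that spent these 12 h on the pathogenic bacterium Pseudomonas aeruginosa PA14, and they serve here as a second measurement of the RNAi effect and as part of the estimate of the spread between libraries. Of 17430 genes listed, 11994 reached a value of 10 in 3 or more of the 6 E. coli libraries and were tested.

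The oligosaccharyltransferase (OST) complex sits in the membrane of the endoplasmic reticulum (ER) and moves a preassembled sugar tree from the lipid dolichol onto asparagine residues of proteins entering the secretory pathway. STT-3 is its catalytic subunit. The attached glycan helps a protein to fold and is read by ER lectins during quality control, so proteins made for the cell surface, the lysosome or export depend on the complex. In worms these include yolk proteins, lysosomal hydrolases and many secreted immune effectors. In RNAi by feeding, worms eat bacteria that express double-stranded RNA of the target gene, and the matching messenger RNA is degraded. Bulk libraries of whole worms cannot tell fewer cells of a type from less RNA per cell.

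In these files the value of the targeted gene did not run with the labels. The value of stt-3 was 461, 488 and 467 in replicates 1, 2 and 3 of the libraries labelled stt-3 RNAi, against 421, 398 and 434 in control RNAi. The labelled libraries were all above the control ones, by 0.18 ± 0.08 on the log2 scale (SE, adjusted p = 0.261). A difference of log2(value + 1) between the group means is called the log2 fold change below, and adjusted p is that of limma with Benjamini-Hochberg adjustment over all genes tested. A gene was called at a change of more than 2-fold with an adjusted p under 0.05.

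The one OST subunit that passed the test was ostd-1, at 138, 124 and 115 in the labelled libraries and 666, 635 and 624 in control RNAi (log2 fold change -2.35 ± 0.11, adjusted p = 1.37e-06). The remaining subunits ribo-1, ostb-1, dad-1 and ZK686.3 lay between 0.06 and 0.21 on the same scale, and none was called. The counting did not use strand as far as the sources tell, and ostd-1 overlaps tom-1 on the opposite strand. Because of stt-3 itself, the libraries are named by their labels throughout, and "labelled libraries" means those labelled stt-3 RNAi on E. coli.

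One library stood apart. On the first principal component of the 6 libraries, which held 46.9% of their variance, replicate 3 of the labelled libraries lay furthest out at 56.0, against -40.8 to -9.43 for the control libraries. Its total value was 6069138, against 7270340 and 7717979 in the other labelled libraries and 7644341 to 8627187 in control RNAi. Its summed value over all 156 listed cuticle collagens, of which 127 were tested, was 333778. That compares with 636956 and 816974 in labelled replicates 1 and 2 and 626421 to 944865 in control RNAi. The counts and medians that moved most without this library are given with and without it. Among markers of intestine, body wall muscle, pharynx, epidermis, neurons and germ line, 24 genes in all, none was called, and the summed values of all of these lists but those of neurons and germ line overlapped between the groups. The 5 listed neuron markers, of which 4 were tested, summed to 1535 to 1605 in the labelled libraries and 1320 to 1361 in control RNAi. The germ line markers summed to 2636 to 2923 in the labelled libraries and 3012 to 3465 in control RNAi.

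**Figure D1:**
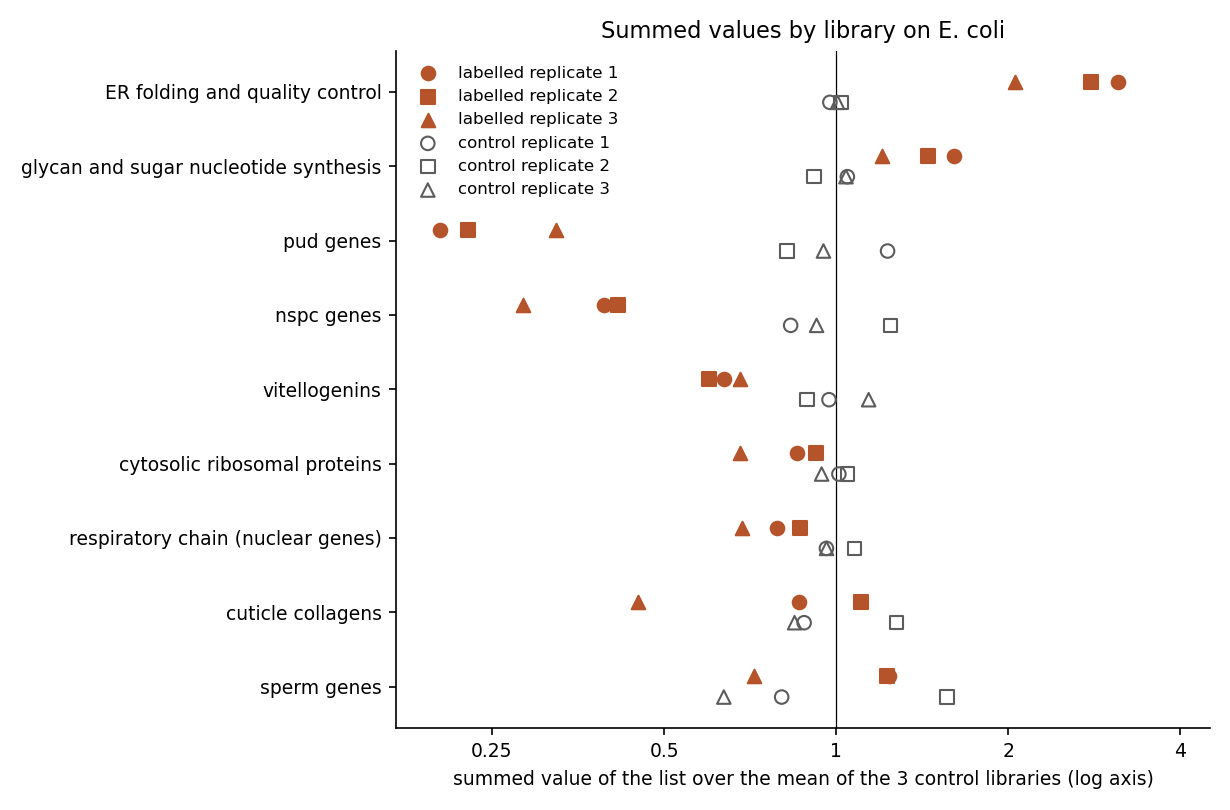
Summed value of all listed members of 9 gene lists in each E. coli library, divided by the mean of the 3 control libraries, on a log axis. Filled symbols are labelled libraries and open symbols control RNAi, with 1 shape per replicate number. The pud genes of the labelled libraries lie furthest to the left, and labelled replicate 3 has the lowest collagen sum, 333778.

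In the labelled libraries 200 genes were called higher, 1.67% of those tested, and 150 were called lower, 1.25%. In all 350 called genes the 3 labelled libraries lay on one side of the 3 control libraries, as they did in 8.68% of all tested genes upward and in 13.5% downward. The median log2 fold change over all tested genes was 0.01, with 51.4% above 0 and 48.6% below 0. These values, with the 1.67% called higher and 1.25% called lower, are the background for the E. coli counts of every list below. The fit took the spread from all 12 libraries. With the 6 E. coli libraries alone 83 genes were called higher and 47 lower, and a test against a 2-fold change left 26 and 4. Leaving out 1 library at a time gave 133 to 199 genes higher and 93 to 188 lower: 133 higher without labelled replicate 1, 134 without control replicate 1 and 93 lower without control replicate 2 were the counts that moved most downward. Of the called genes, 109 of 200 and 69 of 150 kept their call without any 1 library. Chromosome V held 68 of the genes called higher, 3.10% of those tested there, and chromosome X held 52 of those called lower, 3.54%. The 52 include the 18 nspc genes described below, which are near copies and not separate measurements.

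**Figure D2:**
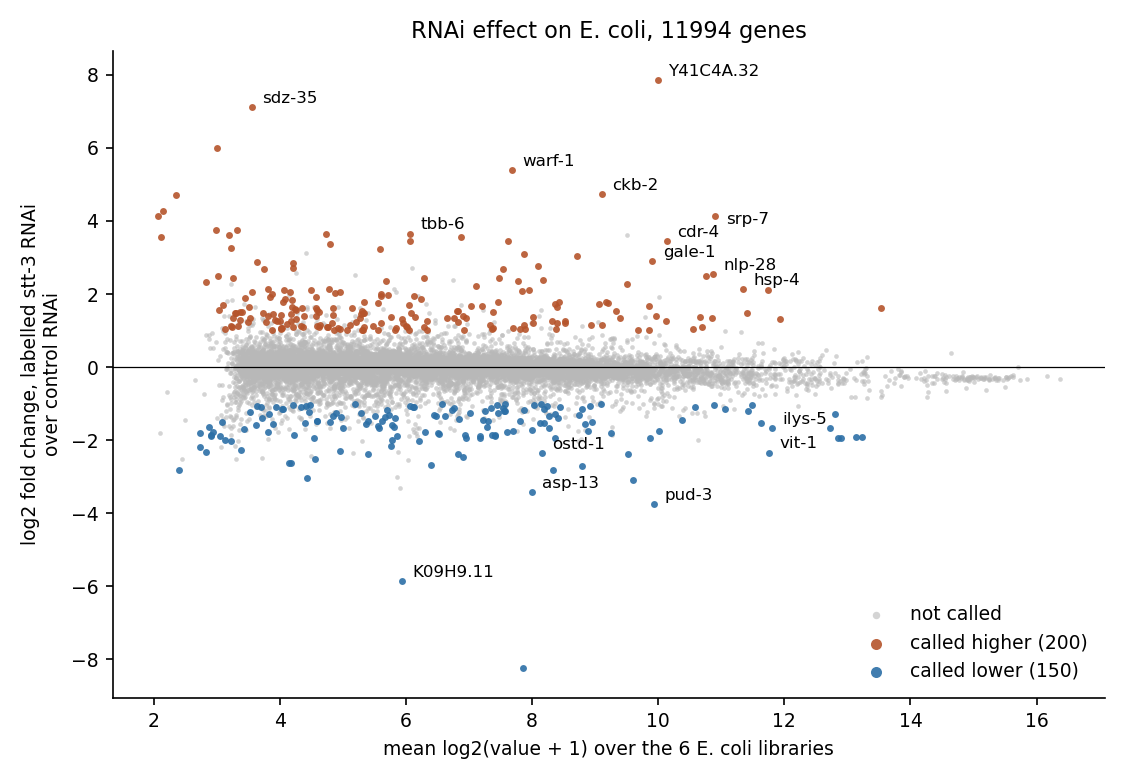
Log2 fold change of the labelled libraries over control RNAi against the mean log2(value + 1) over the 6 E. coli libraries, 1 point per tested gene. Called genes are coloured, 200 higher and 150 lower, and the named genes are among those with the largest changes. The unnamed point at the lower edge is the mitochondrial gene WBGene00010965.

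The 10 largest increases with no overlap and a mean of at least 50 in the higher group were led by Y41C4A.32, with 31511, 15747 and 7531 in the labelled libraries and 74, 97 and 40 in control RNAi (log2 fold change 7.85 ± 0.48, adjusted p = 1.41e-05). It lies at III:11721706-11723607 of WBcel235 and overlaps Y41C4A.26 on the opposite strand. The highest and the lowest labelled value differed more than 4-fold, yet the lowest was still far above every control value. The serpin gene srp-7, a predicted protease inhibitor at V:8179126-8183442, had 10289, 8087 and 6314 in the labelled libraries and 466, 417 and 489 in control RNAi (4.14 ± 0.17, adjusted p = 1.37e-06).

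Both sdz-35 and F22E5.6 were listed at 0 in all 3 control libraries. In the labelled libraries sdz-35 had 94 to 230 and F22E5.6 had 109, 63 and 37, and no fold is given for either. Of the rest, Y37H2A.14 had 423, 283 and 526 in the labelled libraries and 20, 66 and 27 in control RNAi, and C25F9.11 had 140, 65 and 88 against 5, 9 and 6. F48C1.9 owed its place to 1 library, with 11, 11 and 171 in the labelled libraries and 0, 1 and 4 in control RNAi, and its adjusted p of 0.0366 was 0.141 without control replicate 1 and 0.089 without control replicate 2. The ADP-ribosylation factor gene warf-1, the choline kinase gene ckb-2 and the tubulin gene tbb-6, which complete the 10, are described with their groups.

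The largest decreases were mixed in reliability. The mitochondrial gene WBGene00010965 had 470, 4 and 0 in the labelled libraries and 8730, 1129 and 6745 in control RNAi, a range of that size within each group, and its adjusted p of 0.025 lay between 0.0642 and 0.0981 without labelled replicate 2, labelled replicate 3, control replicate 1 or control replicate 3. None of the other 11 mitochondrial genes tested was called, but single libraries stood far apart in some of them too. WBGene00010964 was listed at 0 in control replicate 2 and had 2302 to 3122 in the rest. COX3 had 1292 in labelled replicate 2 and 5617 to 9071 in the rest. K09H9.11, inside the same-strand gene vbh-1 at I:3159283-3159494, had 2, 56 and 2 in the labelled libraries and 548, 282 and 643 in control RNAi (-5.86, adjusted p = 0.0112). How reads were divided between K09H9.11 and vbh-1 is not given in the sources used here.

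Other genes of this set were steadier. The short-chain dehydrogenase gene dhs-25 had 192, 338 and 77 in the labelled libraries and 1296, 1296 and 857 in control RNAi (-2.71 ± 0.40, adjusted p = 0.00332). T16G12.1 had 11, 12 and 5 in the labelled libraries and 57, 58 and 51 in control RNAi (-2.52 ± 0.29, adjusted p = 0.000768). Y43C5A.7 fell by 2.68 ± 0.48 (adjusted p = 0.00924). The arginine kinase gene argk-1, which buffers cellular ATP, fell by 2.81 ± 0.69 (adjusted p = 0.0368), but its adjusted p was 0.0706 to 0.105 without any of the libraries except labelled replicate 2. The remaining members, pud-3, pud-4, asp-13 and clec-258, are described with their families.

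ER folding genes, named here only as a scale for the rest, were called higher in 11 of 28 members (39.3%, against 1.67% of all genes). None was called lower, and the median log2 fold change was 0.81. The Hsp70-type chaperone gene hsp-4 had 7193, 6528 and 3507 in the labelled libraries and 1231, 1147 and 1357 in control RNAi, and the calreticulin gene crt-1 had 23798, 20611 and 18198 against 6119, 7453 and 6799. The largest change of the list was that of dpy-18, a subunit of the collagen prolyl 4-hydroxylase, with 2235, 1675 and 462 in the labelled libraries and 152, 159 and 126 in control RNAi (3.04, adjusted p = 0.00332). In these 3 genes the labelled libraries were all above the control ones, and labelled replicate 3 was the lowest of the labelled libraries. The 5 genes of ER-associated degradation and the 6 sensors and regulators of the unfolded protein response held no called member.

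**Figure D3:**
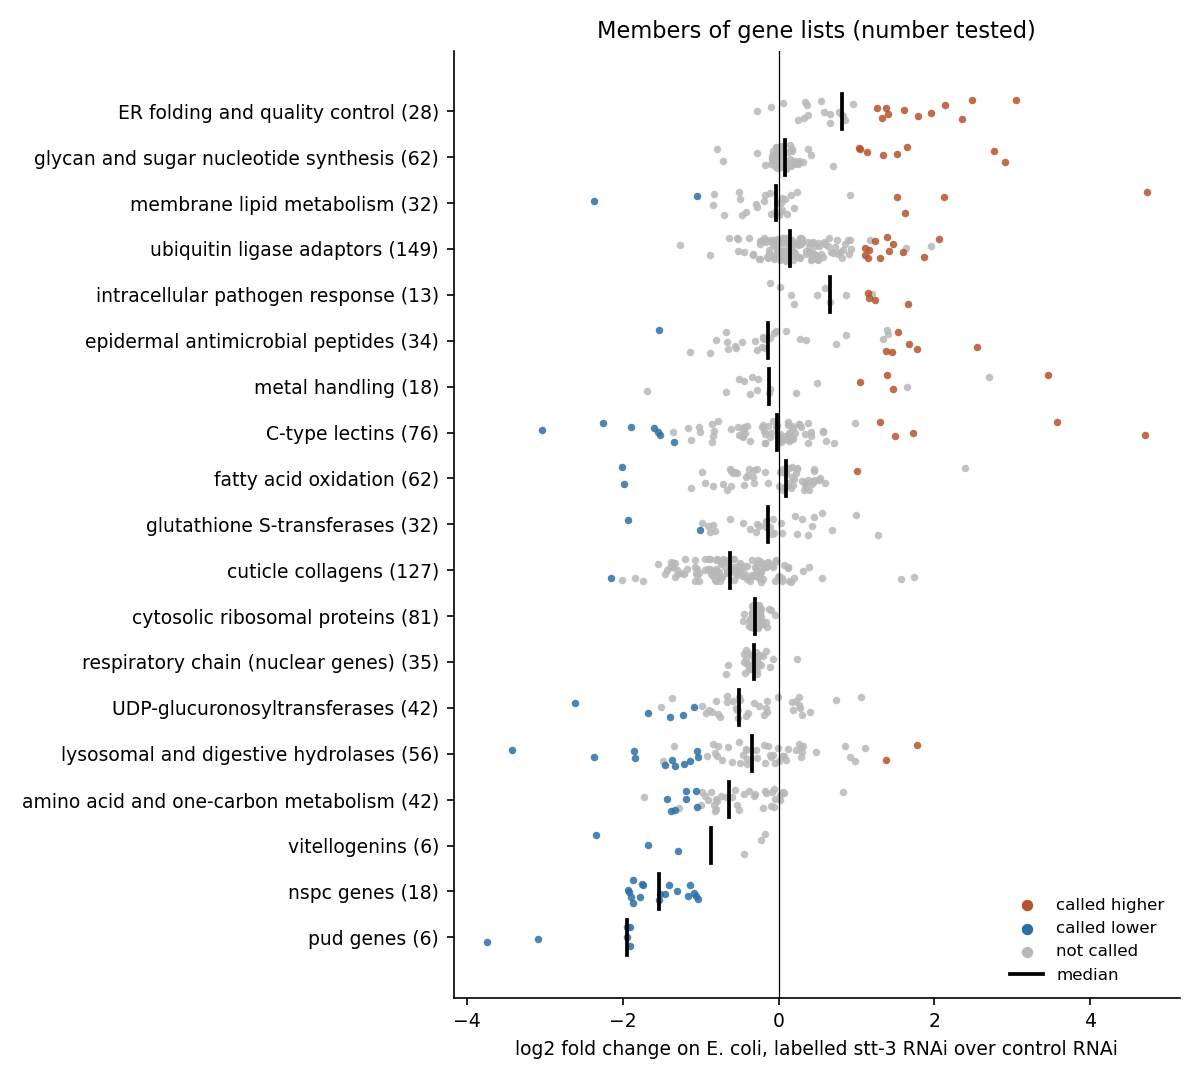
Log2 fold change on E. coli of every tested member of 19 gene lists, 1 point per gene, with the number tested beside each name and a black bar at the median. Coloured points are called genes, and the vertical scatter within a list carries no information. All members of the nspc and pud lists are coloured as lower.

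Some genes that make and activate sugars rose, while no gene that assembles the sugar tree was called. Of 62 tested genes of glycan and sugar nucleotide synthesis, 8 were called higher and none lower, 12.9% against 1.67% of all genes, with a median of 0.09. The 15 genes of dolichol-linked glycan assembly, which build the donor that the OST complex uses, held no called gene and spanned -0.17 to 0.31. Of 16 genes for sugar nucleotide enzymes and carriers, 5 were called higher.

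The largest of these changes was that of gale-1, which encodes the UDP-galactose 4-epimerase that interconverts UDP-glucose and UDP-galactose. It had 4132, 2867 and 1531 in the labelled libraries and 344, 319 and 392 in control RNAi (2.90 ± 0.32, adjusted p = 0.000625). bre-1 encodes the GDP-mannose 4,6-dehydratase that starts GDP-fucose synthesis, and had 1100, 772 and 432 in the labelled libraries and 93, 125 and 97 in control RNAi (2.77 ± 0.30, adjusted p = 0.000542). In both genes the lowest labelled value was more than 3 times the highest control value. gale-1 shares its strand and part of its span with eif-6 and prx-11.

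Smaller rises came at neighbouring steps. ger-1, the epimerase-reductase that completes GDP-fucose, had 332, 260 and 153 in the labelled libraries and 110, 118 and 115 in control RNAi (1.04, adjusted p = 0.0302). The phosphomannomutase gene F52B11.2, whose product leads to GDP-mannose, had 995, 870 and 445 in the labelled libraries and 335, 322 and 332 in control RNAi (1.14, adjusted p = 0.0165). gfat-1, which carries out the entry step of the hexosamine pathway to UDP-N-acetylglucosamine, had 2569, 2494 and 1547 in the labelled libraries and 1132, 870 and 1167 in control RNAi (1.04 ± 0.18, adjusted p = 0.00714). The groups did not overlap in any of the 3, and labelled replicate 3 was the nearest to control RNAi in each. The adjusted p of ger-1 was 0.0689 to 0.102 without any library except labelled replicate 3, and that of F52B11.2 was 0.0522 to 0.0566 without control replicate 1, control replicate 2 or labelled replicate 1.

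The other called members were the predicted glycosyltransferase gene C38H2.2, with 226, 159 and 139 in the labelled libraries and 63, 79 and 61 in control RNAi, the mannosidase gene aman-3, with 20, 17 and 21 against 4, 8 and 5, and the ceramide glucosyltransferase gene cgt-1, with 20, 13 and 17 against 3, 7 and 6. Without 1 library the list held 4 to 8 called genes, the fewest without labelled replicate 1, and 5 without either control replicate 1 or control replicate 2. gfat-1 was under the 2-fold limit without control replicate 2 (0.90), labelled replicate 1 (0.91) or labelled replicate 2 (0.93), and the adjusted p of cgt-1 was 0.0621 without control replicate 1 and 0.0707 without labelled replicate 1. With the 6 E. coli libraries alone 3 of the 8 were called.

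Genes of membrane lipid metabolism moved in both directions. Of 32 tested, 4 were called higher and 2 lower (12.5% and 6.25%, against 1.67% and 1.25% of all genes). The median was -0.03, and -0.11 without labelled replicate 3. The phospholipid branch supplied 3 of the increases. pmt-2, of phosphocholine synthesis, is not in this list. It is counted with amino acid and one-carbon metabolism below, where it was called lower. Choline kinase phosphorylates choline on the way to phosphatidylcholine, and its gene ckb-2 at III:4367949-4370160 had 3940, 3662 and 1581 in the labelled libraries and 98, 127 and 96 in control RNAi. That was 26.5-fold (log2 fold change 4.73 ± 0.29, adjusted p = 1.41e-05), with every labelled library more than 10 times above every control one. ckb-2 shares its strand and part of its span with srpr-1.2.

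dsc-4 encodes the microsomal triglyceride transfer protein, which loads lipid onto yolk lipoproteins, and had 709, 561 and 340 in the labelled libraries and 102, 128 and 123 in control RNAi (2.12 ± 0.26, adjusted p = 0.00104). The phospholipase gene ipla-2 had 60, 52 and 38 in the labelled libraries and 15, 12 and 20 in control RNAi (1.62 ± 0.22, adjusted p = 0.00208). The groups did not overlap in either gene. In the sphingolipid branch cgt-1 was called higher and the acid sphingomyelinase genes asm-3 and asm-2 lower. asm-3 had 27, 14 and 14 in the labelled libraries and 193, 61 and 72 in control RNAi (-2.37 ± 0.40, adjusted p = 0.00689), and overlaps W03G1.10 on the opposite strand. asm-2 was called with an adjusted p of 0.0487, and of 0.0792 to 0.172 without any library except labelled replicate 1.

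Coat proteins and ARF-family GTPases, which form and move the vesicles between ER and Golgi, held 1 called gene of 35, although 28 of the 35 lay above 0 and the median was 0.17. That gene was warf-1 at IV:7634786-7635712, with 3310, 1230 and 566 in the labelled libraries and 23, 52 and 24 in control RNAi (5.38 ± 0.55, adjusted p = 0.000425). The labelled values spread almost 6-fold among themselves and none came within 10-fold of a control value. warf-1 overlaps nep-16 on the opposite strand. None of the 29 coat genes was called.

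Adaptors of cullin-RING ubiquitin ligases, which choose the proteins that these ligases mark for degradation, rose in a small share of the family. Of 149 tested, 12 were called higher and none lower, or 8.05% against 1.67% of all genes. The median was 0.15, and 108 members lay above 0, but without labelled replicate 3 the median was 0.06 and 89 lay above 0. The called genes were 9 of 85 F-box genes, the Skp1-related genes skr-3 and skr-4, and the cullin gene cul-6, while none of 40 MATH and BATH genes was called. F-box proteins bind the target and Skp1-related proteins join them to the cullin.

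Values in this family were low, so that few units separated the groups. fbxa-105 had 79, 51 and 60 in the labelled libraries and 10, 16 and 18 in control RNAi (2.05 ± 0.30, adjusted p = 0.0032). fbxa-31 had 60, 43 and 38 in the labelled libraries and 15, 18 and 17 in control RNAi (1.42 ± 0.23, adjusted p = 0.00478), and fbxa-26 had 32, 28 and 39 against 10, 14 and 12 (1.39 ± 0.19, adjusted p = 0.00191). fbxa-98 and fbxa-90 rose by 1.11 each, and fbxa-90 lay at 0.96, under the limit, without labelled replicate 1. With a pseudocount of 10 in place of 1 the family had 5 calls, with the 6 E. coli libraries alone 6, and without 1 library 7 to 18, the fewest without labelled replicate 1 and the most without labelled replicate 3.

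skr-3, skr-4 and cul-6 also belong to the intracellular pathogen response, a gene set known in worms for its rise with microsporidia, the Orsay virus and loss of proteasome function. Of 13 tested members of that set, 4 were called higher, the fourth being sqst-1, and 12 lay above 0. None of 8 pals genes, the largest family of the response, was called, and the 8 had a median of 0.34. sqst-1 encodes the p62-type autophagy receptor that gathers ubiquitinated cargo, and had 261, 205 and 333 in the labelled libraries and 64, 92 and 93 in control RNAi (1.66 ± 0.21, adjusted p = 0.0012). Its lowest labelled value was more than 2 times its highest control value.

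The linkers and the cullin were less secure. skr-4 had 379, 278 and 401 in the labelled libraries and 108, 189 and 186 in control RNAi (1.15 ± 0.23, adjusted p = 0.014). It was under 2-fold without control replicate 1 (0.89) and had an adjusted p of 0.0551 without labelled replicate 1. skr-3, with an adjusted p of 0.0492, lost its call without any library but labelled replicate 3, at up to 0.161. cul-6 had 24, 15 and 12 in the labelled libraries and 6, 7 and 6 in control RNAi (adjusted p = 0.025), and between 0.0507 and 0.087 without control replicate 1, 2 or 3 or labelled replicate 1. Without control replicate 1 or labelled replicate 1 the set held 1 called gene. Proteasome genes did not accompany them: none of 36 was called, and the range was -0.24 to 0.30, with 31 below 0, and 21 below 0 after quantile normalization. Of 26 autophagy genes sqst-1 was the only one called, although 22 lay above 0 with a median of 0.23, which was 0.11 without labelled replicate 3.

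**Figure D4:**
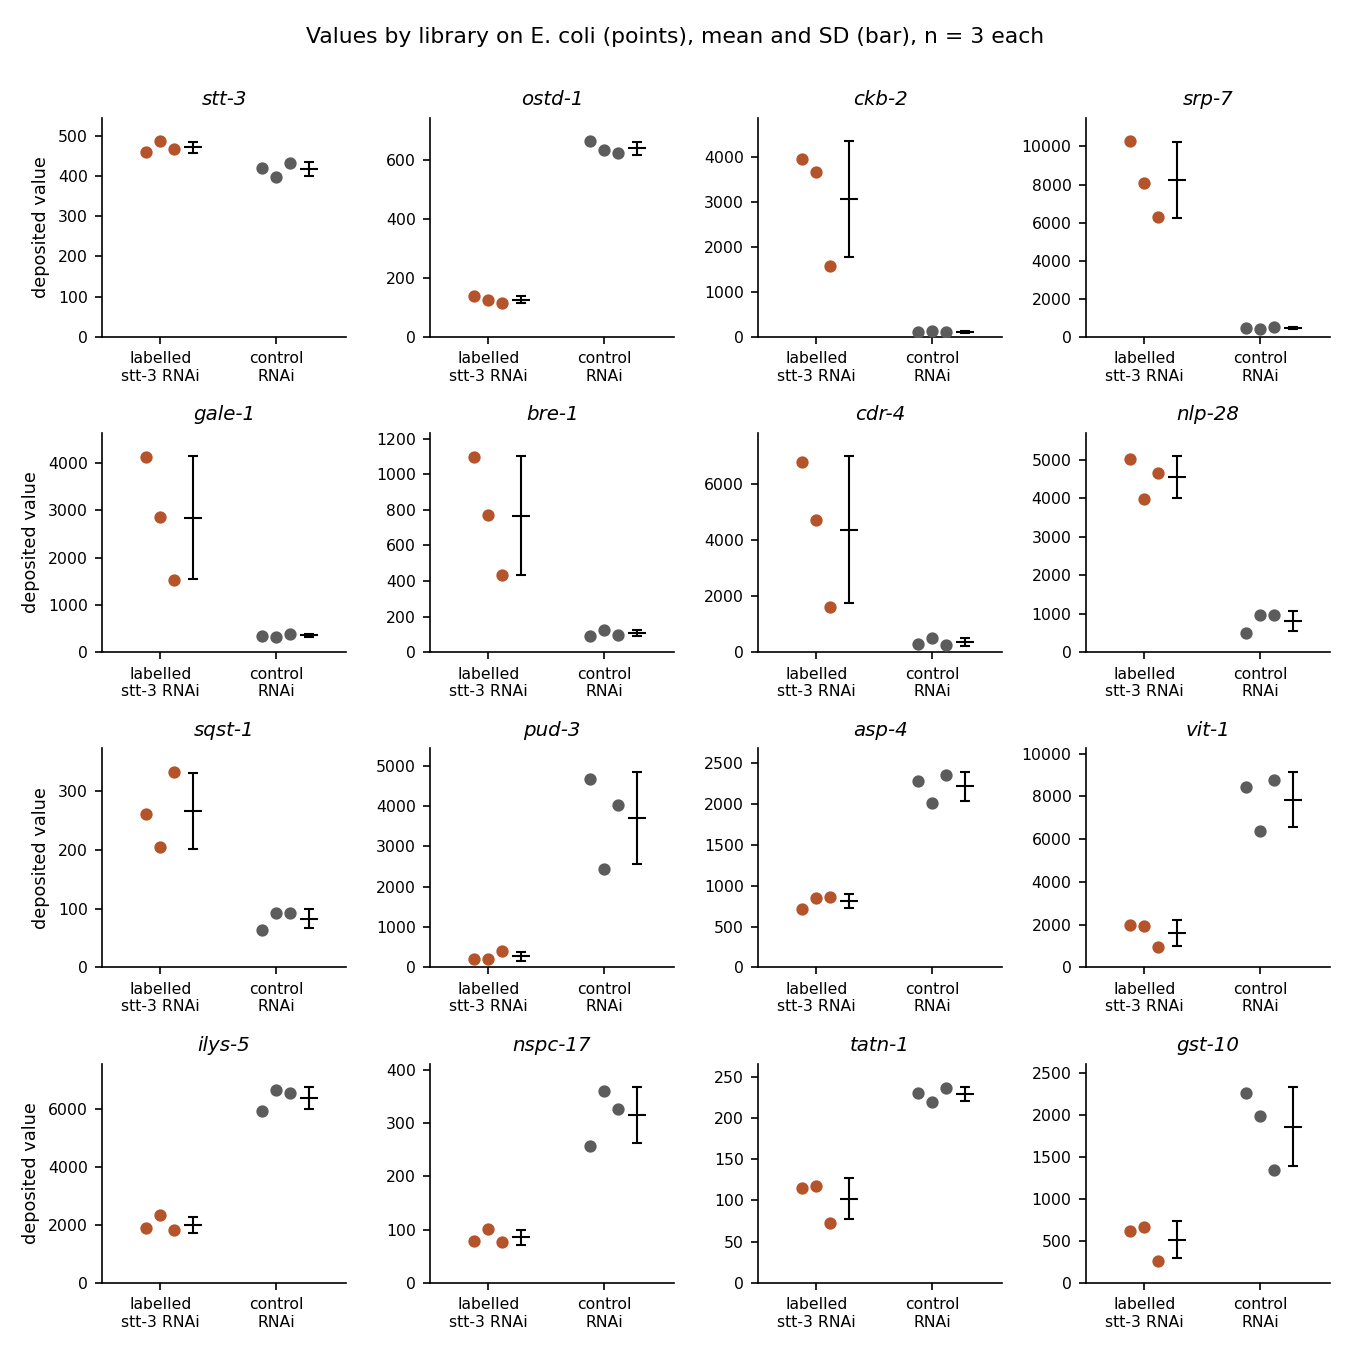
Deposited value of 16 genes in each E. coli library, labelled libraries left and control RNAi right of each panel, with the mean and SD of 3 libraries beside the points and axes starting at 0. The stt-3 panel shows 461 to 488 in the labelled libraries, above 398 to 434 in control RNAi, while ostd-1 shows 115 to 138 against 624 to 666.

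Antimicrobial peptides of the epidermis, small secreted peptides that rise after fungal infection and wounding, split within 1 gene cluster. Of 34 tested, 6 were called higher (17.6%, against 1.67% of all genes) and 1 lower (2.94%, against 1.25%), and the median was -0.14. nlp-34, nlp-31, nlp-29 and nlp-28 lie within V:3978825-3988316, and all 4 rose, while nlp-30, the fifth gene tested in that span, was not called (0.74, adjusted p = 0.26). nlp-28 had 5027, 3973 and 4674 in the labelled libraries and 506, 951 and 968 in control RNAi (2.55 ± 0.22, adjusted p = 0.000187). nlp-29, a common reporter of the epidermal response, had 581, 630 and 704 in the labelled libraries and 150, 253 and 166 in control RNAi (1.78 ± 0.27, adjusted p = 0.00332). Every labelled value of both genes was more than 2 times every control value.

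nlp-34 had 239, 229 and 230 in the labelled libraries and 88, 83 and 51 in control RNAi (1.68 ± 0.22, adjusted p = 0.00191), and nlp-31 had 350, 416 and 490 against 114, 209 and 169 (1.38 ± 0.22, adjusted p = 0.00547). The caenacin gene cnc-4 rose by 1.53 and the fungus-induced peptide gene fip-6 by 1.46. nlp-27, at V:3989378-3989770 next to nlp-28, went the other way, with 1868, 2817 and 1238 in the labelled libraries and 4633, 6666 and 5147 in control RNAi (-1.54 ± 0.27, adjusted p = 0.00794). The groups did not overlap in any of these genes. The nlp genes of this cluster are near copies of one another, and reads may have been shared between them. Without 1 library the list held 5 or 6 genes higher and 1 lower in each case, while its median was 0.19 without control replicate 2 and 0.17 without labelled replicate 3. fip-6 lost its call without any 1 of the 6 libraries, with adjusted p of 0.0741 to 0.0984, and cnc-4 without control replicate 1 (0.0685) or control replicate 2 (0.0522).

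C-type lectins, a large family of secreted or membrane proteins of which many respond to bacteria, had 5 of 76 called higher (6.58%, against 1.67% of all genes) and 7 lower (9.21%, against 1.25%), with a median of -0.03. clec-190 had 32, 30 and 25 in the labelled libraries and 130, 103 and 100 in control RNAi (-1.90 ± 0.17, adjusted p = 0.000272). clec-258 had 6, 11 and 4 in the labelled libraries and 72, 59 and 53 in control RNAi (-3.05 ± 0.49, adjusted p = 0.00547), and clec-52 had 7, 8 and 8 against 25, 24 and 24. Upward, clec-121 had 30, 26 and 20 in the labelled libraries and was listed at 0 in all control libraries. clec-85 had 1643, 693 and 808 in the labelled libraries and 260, 317 and 305 in control RNAi (1.73, adjusted p = 0.0122, and 0.0538 without control replicate 1). Without 1 library 2 to 5 lectin genes were higher and 3 to 8 lower, the fewest without control replicate 1.

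Lysozyme genes, which encode enzymes that cut bacterial cell walls, were called lower in 2 of 9 (22.2%, against 1.25% of all genes) and higher in none. ilys-5, an invertebrate-type lysozyme gene, had 1875, 2322 and 1823 in the labelled libraries and 5940, 6633 and 6543 in control RNAi (-1.67 ± 0.13, adjusted p = 0.000114). lys-4 had 104, 176 and 250 in the labelled libraries and 476, 888 and 638 in control RNAi (-1.95 ± 0.35, adjusted p = 0.00934). Both kept their calls without any 1 library. The saposin-like gene spp-8 rose, at 1681, 1154 and 2361 in the labelled libraries and 505, 500 and 546 in control RNAi (1.68 ± 0.22, adjusted p = 0.00151), 1 of 19 members.

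Among CUB-like and dod genes, 2 of 14 were called higher (14.3%, against 1.67% of all genes) and 1 lower (7.14%, against 1.25%). dod-23 had 360, 248 and 377 in the labelled libraries and 1166, 985 and 1267 in control RNAi (-1.81 ± 0.22, adjusted p = 0.00104). dod-22 had 389, 344 and 764 in the labelled libraries and 51, 163 and 159 in control RNAi (2.08 ± 0.53, adjusted p = 0.043), and lost its call without any 1 of the 6 libraries, with adjusted p between 0.0507 and 0.143. K08D8.4, with an adjusted p of 0.0325, lay between 0.0502 and 0.129 without control replicate 1, control replicate 3, labelled replicate 1 or labelled replicate 2. Among 20 genes of MAP kinase signalling and its reporters, kgb-2 and irg-7 rose. kgb-2, a relative of the JNK kinases, had 35, 22 and 50 in the labelled libraries and 4, 7 and 12 in control RNAi (2.11 ± 0.34, adjusted p = 0.00534). The infection response gene irg-7 had 563, 489 and 663 in the labelled libraries and 189, 258 and 271 in control RNAi (1.26 ± 0.23, adjusted p = 0.0091). It was the only called gene of the 7 tested reporters, of which 3 lay above 0 and 4 below, with a median of -0.42. With the 6 E. coli libraries alone 1 reporter was called higher and 1 lower. The 8 genes of the p38 pathway spanned -0.08 to 0.75, and none was called.

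The nspc and pud families fell in full. The nspc genes encode a nematode-specific peptide family whose role is not described in the sources used here, and all 18 tested members were called lower, against 1.25% of all genes. Their median was -1.53 and they spanned -1.93 to -1.03. They lie in 3 clusters on chromosome X, with 7 members at X:8534672-8542283, 6 at X:12342946-12361159 and 5 at X:14523575-14530207. In the clusters of 7 and of 5 members every gene that was tested within the span was a called nspc gene, and in the remaining cluster 6 of 8 were. nspc-17 had 79, 101 and 76 in the labelled libraries and 258, 361 and 327 in control RNAi (-1.87 ± 0.21, adjusted p = 0.000621). nspc-19 had 108, 130 and 101 in the labelled libraries and 311, 457 and 377 in control RNAi, and nspc-20 had 281, 311 and 189 against 752, 1098 and 787.

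The summed value of the 18 genes was 3023, 3192 and 2183 in the labelled libraries and 6404, 9567 and 7109 in control RNAi, with no overlap. Control replicate 2 was the highest in every one of the genes given, and the number called was 9 without it, 15 without either labelled replicate 1 or labelled replicate 3, 16 without control replicate 3, and 7 with the 6 E. coli libraries alone. Their median was -1.31 without labelled replicate 3. The members are near copies, and 2 gene IDs carry the name nspc-2, so their values are not separate measurements of 18 genes.

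All 6 pud genes (protein upregulated in daf-2, a name from insulin receptor mutants) fell, with a median of -1.95. They lie side by side at V:2322038-2330930. pud-3 had 205, 220 and 410 in the labelled libraries and 4662, 2445 and 4018 in control RNAi (-3.75 ± 0.31, adjusted p = 0.000164), and pud-4 had 171, 184 and 587 against 2997, 1468 and 2625 (-3.09 ± 0.45, adjusted p = 0.00322). pud-1.1 had 3087, 3413 and 5044 in the labelled libraries and 18431, 12179 and 13494 in control RNAi (-1.94 ± 0.20, adjusted p = 0.000493). pud-1.2 and both gene IDs named pud-2.2 had changes between -1.95 and -1.90, and as near copies of pud-1.1 or of each other they may share reads. In each of the 6 genes the lowest control value was more than 2 times the highest labelled value, and all 6 stayed called without any 1 library.

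Vitellogenins, the yolk proteins that the intestine makes and sends to the oocytes, were called lower in 3 of 6, and all 6 lay below 0 with a median of -0.87. After quantile normalization 2 were called lower, 4 lay below 0 and the median was -0.53. vit-1 had 1981, 1957 and 932 in the labelled libraries and 8449, 6367 and 8756 in control RNAi (-2.34 ± 0.27, adjusted p = 0.000747). vit-3 had 3931, 4239 and 3261 in the labelled libraries and 12155, 10696 and 13655 in control RNAi (-1.68 ± 0.19, adjusted p = 0.000631), and vit-4 had 5226, 4951 and 3715 against 11024, 9737 and 13054 (-1.29 ± 0.18, adjusted p = 0.00266). The labelled libraries lay below the control ones in all 3 genes. The sum of the 6 genes was 53323, 50322 and 56969 in the labelled libraries and 81459, 74575 and 95569 in control RNAi. The uncalled members vit-2, vit-5 and vit-6 lay between -0.45 and -0.18. The vitellogenin genes are close relatives, and division of reads between them is not given in the sources used here.

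Lysosomal and digestive hydrolases, many of them glycoproteins that pass through the ER, fell more often than they rose. Of 56 tested, 11 were called lower (19.6%, against 1.25% of all genes) and 2 higher (3.57%, against 1.67%), with a median of -0.35. Of the 56, 38 lay below 0, against 48.6% of all genes. asp-4, a cathepsin D-like aspartic protease gene, had 711, 850 and 866 in the labelled libraries and 2277, 2017 and 2356 in control RNAi (-1.46 ± 0.13, adjusted p = 0.000187). asp-13 had 38, 74 and 160 in the labelled libraries and 850, 864 and 796 in control RNAi (-3.43 ± 0.45, adjusted p = 0.00166). The libraries of each group lay close together for asp-4, while the labelled libraries spread 4-fold for asp-13, all of them far under control RNAi.

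Among cysteine proteases, the cathepsin Z-like gene cpz-1 had 1250, 1508 and 1581 in the labelled libraries and 3663, 2751 and 3148 in control RNAi (-1.14 ± 0.11, adjusted p = 0.000425). The cathepsin B-like genes cpr-4 and cpr-8 changed by -1.21 and -1.85, and the adjusted p of cpr-4 was 0.0512 without labelled replicate 1. nuc-1, the lysosomal DNase II gene that clears DNA of dead cells and of food, had 184, 174 and 229 in the labelled libraries and 495, 472 and 503 in control RNAi (-1.33 ± 0.15, adjusted p = 0.000739). The acid phosphatase gene acp-6 had 1982, 2509 and 1603 in the labelled libraries and 4119, 4319 and 3831 in control RNAi (-1.03 ± 0.15, adjusted p = 0.00279). It lay just under the 2-fold limit without control replicate 2 (-0.99) or labelled replicate 3 (-0.87).

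F09B12.3, pho-7, asm-2 and asm-3 were the other genes called lower. The adjusted p of F09B12.3 and pho-7 lay between 0.0506 and 0.066 without control replicate 1 or 2. The exceptions were asp-12, with 113, 38 and 94 in the labelled libraries and 17, 19 and 28 in control RNAi (1.78, adjusted p = 0.0211), and the phosphatase gene pho-9, with 79, 72 and 112 against 22, 36 and 43 (1.38, adjusted p = 0.00777). asp-12 had an adjusted p of 0.0648 to 0.0873 without control replicate 1, control replicate 2, labelled replicate 1 or labelled replicate 3. None of 9 glycosidase genes was called, and their median was 0.28. Without 1 library 7 to 11 hydrolase genes were lower, the fewest without control replicate 2, and 5 were lower with the 6 E. coli libraries alone. Many enzymes of this kind are made in the intestine, whose 5 markers summed to 5198, 3997 and 2393 in the labelled libraries and 5063, 6924 and 4600 in control RNAi. The groups overlapped in that sum, with the lowest sum in labelled replicate 3, and the part of intestinal RNA in the result was not tested.

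Enzymes of amino acid and one-carbon metabolism lay below 0 in 37 of 42 genes, with a median of -0.64, against 48.6% of all genes below 0. Of the 42, 7 were called lower (16.7%, against 1.25%) and none higher, and with the 6 E. coli libraries alone none was called. All 12 genes of aromatic amino acid metabolism lay below 0. tatn-1, the tyrosine aminotransferase gene, had 115, 118 and 73 in the labelled libraries and 230, 220 and 237 in control RNAi (-1.19 ± 0.17, adjusted p = 0.0031). kynu-1, the kynureninase gene of tryptophan breakdown, had 278, 303 and 110 in the labelled libraries and 545, 676 and 452 in control RNAi (-1.38 ± 0.31, adjusted p = 0.0272). The aromatic amino acid decarboxylase gene bas-1 had 82, 85 and 47 in the labelled libraries and 156, 177 and 143 in control RNAi (-1.18 ± 0.21, adjusted p = 0.00773).

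Labelled replicate 3 was the lowest library for each of these, and their size depended on it. Without it 1 of the 42 was called, the median was -0.41, and tatn-1, bas-1 and kynu-1 lay at -0.97, -0.91 and -0.92 with adjusted p of 0.00151, 0.00434 and 0.00854, under the 2-fold limit. kynu-1 also lost its call without control replicate 1 (adjusted p = 0.0866) or control replicate 2 (0.0848). Without labelled replicate 2, 12 were called. The other called genes were cbl-1, of cystathionine breakdown, with 127, 100 and 56 in the labelled libraries and 260, 286 and 195 in control RNAi, and alh-9, pmt-2 and spds-1, of lysine breakdown, phosphocholine synthesis and spermidine synthesis. alh-9 lay at -0.99 without control replicate 2 and at -0.81 without labelled replicate 3. spds-1 and pmt-2 lost their calls without control replicate 1, 2 or 3 or labelled replicate 3, and pmt-2 without labelled replicate 1 too.

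Conjugating enzymes of detoxification held a few called genes, most of them in 1 family. Of 42 UDP-glucuronosyltransferase genes, which add sugars to small hydrophobic molecules, 5 were called lower (11.9%, against 1.25% of all genes) and none higher. Their median was -0.52, and 32 lay below 0, against 48.6% of all genes. ugt-53 had 6, 10 and 4 in the labelled libraries and 51, 51 and 32 in control RNAi (-2.62 ± 0.32, adjusted p = 0.0012). ugt-26 had 24, 20 and 10 in the labelled libraries and 62, 64 and 45 in control RNAi (-1.68 ± 0.31, adjusted p = 0.0104). ugt-16, ugt-31 and ugt-9 had values of 5 to 37 in all libraries, with adjusted p of 0.0261, 0.0284 and 0.0412, and 2 members of the family were called lower without control replicate 1 or 2 and with the 6 E. coli libraries alone, and 3 without control replicate 3. Without labelled replicate 3, 3 were called lower and 1 higher.

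Glutathione S-transferase genes were called lower in 2 of 32 (6.25%, against 1.25% of all genes), with a median of -0.14 and 20 below 0. Without labelled replicate 3 the median was 0.02 with 15 below 0, and 1 was called higher and 1 lower. With the 6 E. coli libraries alone none was called. gst-10 had 622, 660 and 262 in the labelled libraries and 2259, 1983 and 1339 in control RNAi (-1.93 ± 0.33, adjusted p = 0.00689). gst-28 had 219, 236 and 151 in the labelled libraries and 343, 545 and 347 in control RNAi (-1.01 ± 0.22, adjusted p = 0.0215), and adjusted p of 0.059 without control replicate 2 and 0.0614 without labelled replicate 3. Of 31 cytochrome P450 genes, cyp-25A1 fell, with 13, 10 and 10 in the labelled libraries and 56, 36 and 44 in control RNAi (-1.94 ± 0.23, adjusted p = 0.00109), cyp-14A1 fell with an adjusted p of 0.04, and cyp-32B1 rose, with 46, 40 and 97 against 10, 9 and 19 (2.14 ± 0.34, adjusted p = 0.00473). cyp-14A1 was not called without control replicate 1, control replicate 2 or any 1 of the labelled libraries, with adjusted p between 0.0515 and 0.123.

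Genes that break down fatty acids changed little as a group: of 62, 1 was called higher and 2 lower, with a median of 0.09, and of 0.01 without labelled replicate 3. acox-1.2, a peroxisomal acyl-CoA oxidase gene, had 46, 55 and 18 in the labelled libraries and 179, 151 and 120 in control RNAi (-2.02 ± 0.34, adjusted p = 0.00644). The peroxisomal transporter gene pmp-5 had 22, 42 and 20 in the labelled libraries and 123, 128 and 80 in control RNAi (-1.99 ± 0.28, adjusted p = 0.00282). ech-3 rose by 1.01 ± 0.19, just past the limit, and lost its call without control replicate 3 (1.0, short of the limit before rounding), labelled replicate 1 (0.89) or labelled replicate 2 (0.92). Of 22 genes of fatty acid synthesis and desaturation, the stearoyl-CoA desaturase gene fat-7 fell, with 113, 238 and 101 in the labelled libraries and 375, 408 and 636 in control RNAi (-1.71 ± 0.35, adjusted p = 0.0176). Its adjusted p was 0.0655 without control replicate 3, 0.0699 without labelled replicate 1 and 0.0572 without labelled replicate 3.

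Of 18 metal-responsive genes 4 were called higher (22.2%, against 1.67% of all genes) and none lower, while 10 lay below 0 with a median of -0.12. With the 6 E. coli libraries alone 1 was called. cdr-4, a cadmium-responsive gene, had 6802, 4723 and 1608 in the labelled libraries and 294, 518 and 253 in control RNAi (3.46 ± 0.48, adjusted p = 0.0025). Its lowest labelled value was more than 3 times its highest control value. The divalent metal transporter gene smf-1 had 49, 42 and 40 in the labelled libraries and 17, 23 and 22 in control RNAi (1.05 ± 0.16, adjusted p = 0.00348), and was under 2-fold without control replicate 1 (0.92) or labelled replicate 1 (0.97). The 2 gene IDs named numr-1, near-identical copies, had 15 to 29 in the labelled libraries and 7 to 9 in control RNAi. Their adjusted p of 0.0295 and 0.0372 lay between 0.0703 and 0.122 without control replicate 1, 2 or 3 or labelled replicate 1 or 2, and without control replicate 1 or labelled replicate 1 the list had 1 call.

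Signalling and RNA genes gave single calls. Of 29 genes of RNA interference, rrf-2, an RNA-dependent RNA polymerase gene, had 24, 21 and 16 in the labelled libraries and 4, 5 and 5 in control RNAi (1.90 ± 0.19, adjusted p = 0.000425). sid-2, which takes up double-stranded RNA from the gut, had 289, 185 and 141 in the labelled libraries and 67, 92 and 75 in control RNAi (1.33 ± 0.25, adjusted p = 0.0103). It overlaps dyf-2 on the opposite strand. Both groups of worms were fed RNAi bacteria. Of the 18 tested insulin-like peptide genes, ins-23 rose, with 24, 27 and 35 in the labelled libraries and 4, 9 and 7 in control RNAi, and ins-12 fell, with 3, 1 and 0 against 20, 11 and 10.

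Of the 8 tested genes of the insulin pathway and its targets, 7 lay above 0, none of them called, and sod-3 alone lay below 0. sod-3, the manganese superoxide dismutase gene that DAF-16 activates, had 40, 47 and 48 in the labelled libraries, against 84 in the lowest library of control RNAi (-1.08 ± 0.18, adjusted p = 0.00689). It was under 2-fold without control replicate 2 (-0.92) or labelled replicate 1 (-1.0, short of the limit before rounding). The adjusted p of ins-12, 0.0374, was 0.0702 to 0.145 without any library except labelled replicate 1. Of 11 tubulin genes, tbb-6 rose, with 428, 273 and 111 in the labelled libraries and 14, 19 and 21 in control RNAi (3.65 ± 0.40, adjusted p = 0.000591), as did tba-7, with 251, 166 and 163 against 51, 81 and 67 (1.52 ± 0.23, adjusted p = 0.00332). The O-acyltransferase gene oac-57 had 48, 40 and 35 in the labelled libraries and 12, 15 and 11 in control RNAi (1.62 ± 0.24, adjusted p = 0.0031).

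Of 121 nuclear hormone receptor genes 3 were called higher, 2.48% against 1.67% of all genes. They were nhr-50, nhr-139 and nhr-180, and none remained without either control replicate 1 or labelled replicate 3. Of 49 histone genes, his-38 and his-40 fell, neighbours on chromosome X with 26 to 58 in the labelled libraries and 65 to 191 in control RNAi. his-40 lay at -0.94 without control replicate 2. Of 127 cuticle collagens, col-135 fell, with 20, 25 and 30 in the labelled libraries and 120, 103 and 118 in control RNAi (-2.16 ± 0.22, adjusted p = 0.000471). Of the collagens, 113 lay below 0 with a median of -0.62, and without labelled replicate 3, 80 lay below 0 and the median was -0.10.

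Genes of protein synthesis and respiration lay a little lower in the labelled libraries, with no called gene. All 81 cytosolic ribosomal protein genes lay below 0, with a median of -0.30 and a range of -0.46 to -0.04, and none was called; 35 had an unadjusted p under 0.05. Their summed value was 2338162, 2521539 and 1861413 in the labelled libraries and 2769787, 2866460 and 2583827 in control RNAi. The median was -0.17 without labelled replicate 3, and 0.00 after quantile normalization, so that the direction depended on the scaling. Of 35 nuclear genes of the respiratory chain, 34 lay below 0 with a median of -0.31, none was called and 30 had an unadjusted p under 0.05, against 20.2% of all genes. Their median was -0.25 without labelled replicate 3 and -0.21 after quantile normalization.

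Several lists held no called gene. These were the 24 cytosolic heat shock proteins (-0.48 to 1.2, 4 with an unadjusted p under 0.05), the 9 genes of the mitochondrial unfolded protein response (-0.58 to 0.68, 4 under 0.05), the 68 sperm genes (median 0.15, and 0.39 without labelled replicate 3, 2 under 0.05) and the 18 oocyte and eggshell genes (-0.15 to 0.15, 0 under 0.05). All 73 listed sperm genes summed to 147963, 146735 and 85896 in the labelled libraries and 96136, 186950 and 76166 in control RNAi. The spread within each group was larger than the difference between the groups.

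The worms on PA14 gave a second measurement of the RNAi effect with no library shared, although all 12 libraries were normalized together and entered 1 fit. Of the 200 genes called higher on E. coli, 168 lay above 0 on PA14 and 90 were called higher there (45.0%, against 1.54% of all genes tested), and 5 were called lower. Of the 150 called lower, 131 lay below 0 and 83 were called lower (55.3%, against 3.33% of all genes), and 1 was called higher. The medians on PA14 were 0.94 and -1.3, against 1.5 and -1.54 on E. coli. On PA14 ckb-2 changed by 4.41, srp-7 by 4.40, Y41C4A.32 by 6.98, cdr-4 by 4.62 and pud-3 by -5.16, each past the test. All 6 pud genes and 13 of 18 nspc genes were called lower there too, and 11 ER folding genes were called higher.

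The effects on the 2 bacteria differed for some genes, with an adjusted p under 0.05 for the difference in 46 of the 350 called genes and in 1.68% of all genes. The 350 genes were chosen for their change on E. coli, and the difference uses the same libraries, so nothing is read from that share, nor from changes that were smaller on PA14. Vitellogenins fell further on PA14, where 5 of 6 were called lower with a median of -3.01, and the differences for vit-1, vit-3 and vit-4 lay between -2.46 and -2.41 (adjusted p 0.0104, 0.0019 and 0.00171). Lysosomal hydrolases were called lower in 28 of 56 on PA14, with a median of -1.21. On PA14 3.33% of all genes were called lower, against 1.25% on E. coli, and the difference was not tested for lists as a whole. nuc-1 changed by -3.16 there (adjusted p of the difference = 0.00282). ilys-5 changed by -5.96 on PA14, against -1.67 on E. coli (adjusted p of the difference = 2.77e-06). nlp-28 lay at 0.42 on PA14, against 2.55 on E. coli, and spp-8 at 0.12 against 1.68. Both changes were smaller on PA14, so nothing is read from them for the reason given above.

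**Figure D5:**
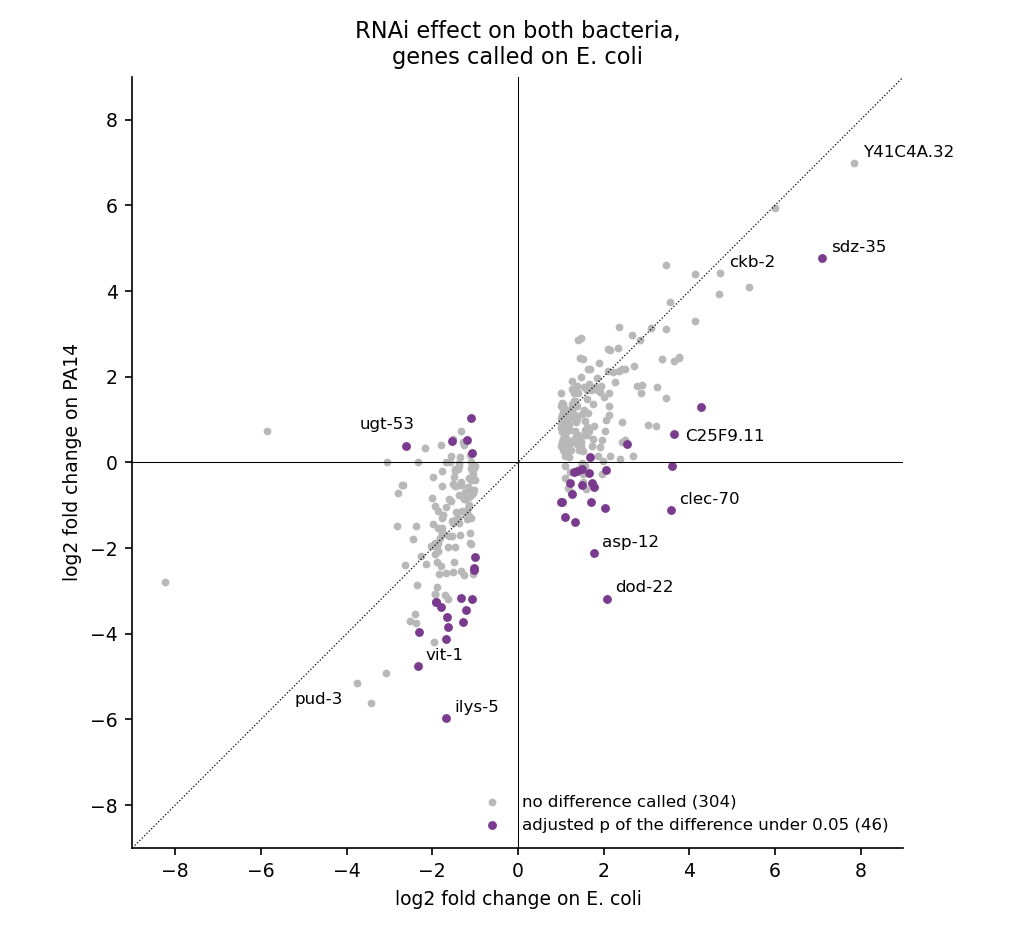
Log2 fold change of the libraries labelled stt-3 RNAi over control RNAi on PA14 against that on E. coli for the 350 genes called on E. coli, with equal change on the dotted line. The 46 genes whose difference had an adjusted p under 0.05 are coloured, and ilys-5 lies well under the line.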

How the data were processed

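RNA was extracted from whole worms, and libraries were made with the TruSeq RNA Library Prep Kit v2, which does not mark strand. Per the methods of the study and the submitters' processing notes, the authors aligned the reads to WBcel235 (ce11) with HISAT2 2.0.5, quantified them per gene with StringTie 1.3.3b and Ballgown, and corrected them by upper-quartile normalization and RUVSeq. The deposited value is a score, a normalized value rounded to a whole number, although its column is headed count. The depth of the libraries is therefore unknown, and no counting interval or limit is given. The control genes of RUVSeq are not given in the sources used here, and a correction of this kind can take away or add differences between groups.

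Of 17430 genes, 16626 were matched to a symbol, and coordinates and overlaps come from the WBcel235 annotation (17384 genes). Log2 values with a pseudocount of 1 were analysed in R 4.3.3 by limma 3.58.1, which fitted 1 mean for each of 4 conditions over 12 libraries and a mean-variance trend. Genes that reached 10 in 3 or more of the 6 E. coli libraries were tested. On each of the bacteria, labelled libraries were set against control RNAi, and the difference between both effects was tested too. The method was tested on simulated data. Nothing in the labels says whether replicates came from separate cultures, so p-values measure the spread between these libraries only, which may be technical.

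The genes named were the called members of each list with the smallest p (up to 5 in full), the 10 largest increases and decreases without overlap and with a mean of at least 50 in the higher group, and the OST subunits; further called members are named as chosen after their values were seen. The lists and their members were written with earlier results of these data known, and their counts are descriptions. Alternatives were other filters, a pseudocount of 10, median-of-ratios and quantile rescaling, the E. coli libraries alone, a test against a 2-fold change, no trend, a replicate block and leaving out each library.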

Additional observations from a re-analysis of the deposited data

Results flagged for a closer look

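For 28 of the 156 called genes that belong to a list or are named by rule, the RNAi effect on PA14 differed from that on E. coli by limma's test of the difference, with an adjusted p under 0.05. The difference passed in 1.68% of all genes tested. The 156 genes were chosen for their change on E. coli, and the difference uses the same libraries. Nothing is therefore read from their share, and part of a smaller change on PA14 can come from the choice. Values here are the log2 fold change on PA14 minus that on E. coli. The vitellogenins vit-1, vit-3 and vit-4 differed by -2.41, -2.46 and -2.44, and the 2 gene IDs named pud-2.2 by -1.36 and -1.37. Among hydrolases and lysozymes the differences were -4.29 for ilys-5, -3.90 for asp-12, -2.23 for cpr-4, -1.83 for nuc-1 and -1.59 for pho-9. Among other immune effectors and reporters they were -5.26 for dod-22, -4.68 for clec-70, -2.2 for clec-85, -2.13 for nlp-28, 2.04 for nlp-27, -2.0 for irg-7, -1.57 for dod-23 and -1.56 for spp-8.

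In genes of metabolism and detoxification they were 3.01 for ugt-53, 2.12 for ugt-9, -1.90 for aman-3, -1.46 for gst-28 and 1.3 for sod-3. The F-box genes fbxa-105 and fbxa-82 differed by -2.22 and -1.52, and nhr-50 by -2.03. Of the largest increases, C25F9.11 differed by -3.0 and sdz-35 by -2.34. dod-22 was called higher on E. coli (2.08) and lower on PA14 (-3.18), and asp-12 lay at -2.12 on PA14 against 1.78 on E. coli. No cause of these differences was tested.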

How the results depend on the processing

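Of the 113 called genes named by rule, none changed direction under any of the 15 alternatives. The groups did not overlap in any called gene, so only median-of-ratios and quantile rescaling could have changed a direction. Little is therefore read from the kept directions. Of 1660 pairs of gene and alternative, 281 lost the call. Of these, 95 did so under the test against a 2-fold change and 49 with the 6 E. coli libraries alone. Against 200 genes higher and 150 lower, a mean value of at least 50 gave 102 higher (104 lower), a pseudocount of 10 gave 133 higher (123 lower), quantile normalization gave 247 lower (259 higher), the 6 E. coli libraries alone gave 83 and 47, and the test against 2-fold gave 26 and 4. With the 6 E. coli libraries alone the intracellular pathogen response held 1 called gene, the epidermal peptides 4 higher, the C-type lectins 2 higher and 3 lower, the lysozymes 1 lower, the CUB-like and dod genes 1 lower and the nuclear hormone receptors none. Without any filter 274 and 185 genes were called. Leaving out 1 library gave 133 to 199 higher and 93 to 188 lower. Of the main calls, 196 and 138 were shared with median-of-ratios rescaling, which gave 200 and 138.

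The replicate numbers paired the E. coli libraries only in part. Deviations of same-numbered libraries from their group means correlated at 0.002, 0.438 and 0.542. Labelled replicates 2 and 3 correlated best with the control library of their number, and labelled replicate 1 with control replicate 2 (0.298). On PA14 same-numbered libraries correlated at 0.525, 0.259 and 0.397. There each labelled library correlated best with the control library of its number. Both patterns are hints from the data and not from the design. A replicate block gave 215 genes higher and 186 lower, with 194 and 147 of the main calls among them. For the effect on PA14, an alternative chosen after seeing the data, the block gave 206 higher and 407 lower, against 185 and 399 without it, with 182 and 392 shared. All values are limited by the unknown depth and by 3 libraries a group, of which labelled replicate 3 lay furthest out on the first principal component.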

Other observations

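Called genes outside the lists, chosen here after their values were seen, included transporters and organelle genes. smim-14, named for a small integral membrane protein, had 1248, 1059 and 938 in the labelled libraries and 271, 357 and 309 in control RNAi (log2 fold change 1.79 ± 0.14, adjusted p = 9.09e-05 by limma). The SWEET sugar transporter gene swt-7 had 1515, 1271 and 660 in the labelled libraries and 297, 417 and 261 in control RNAi (1.76 ± 0.30, adjusted p = 0.00689). The mitochondrial fission gene fis-2 had 778, 593 and 384 in the labelled libraries and 237, 239 and 247 in control RNAi (1.22, adjusted p = 0.00754), and was under 2-fold without labelled replicate 1. F09E10.1, close to dhs-25 on chromosome X, had 199, 186 and 201 in the labelled libraries and 424, 381 and 515 in control RNAi (-1.16 ± 0.12, adjusted p = 0.000425). The groups did not overlap in these genes.

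Of the genes called higher, 194 of 200 were annotated as protein-coding, and 139 of the 150 called lower. A mean under 50 in both groups was found in 78 of the genes called higher and in 40 of those called lower. The shares of protein-coding genes and of such low means among all genes tested are not given here. Nothing is therefore read from these counts.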
